A study of Drosophila melanogaster with 3 samples.

Results

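The genes described here are 42 homeobox transcription factor genes of Drosophila melanogaster. They lie outside the groups drawn up here as Iroquois genes, homeotic (Hox) genes, NK genes of muscle and retinal determination genes. They are not all such genes, since 6 segmentation genes and 23 further homeobox genes were counted only in a comparison list. The list was named by gene family, with earlier results of these data known, and the rule itself used no measured value. All 42 were found among the 13945 protein-coding genes that the Ensembl annotation places on the 6 main chromosome arms. Binding of the Iroquois homeobox protein Caup had been mapped by chromatin immunoprecipitation and sequencing (ChIP-seq) in whole fly embryos, males and females together, collected between 0 and 24 h of age. The single group comprised 3 biological replicates of a transgenic line that stably expresses Caup with GFP at its C terminus, and the fusion protein was precipitated with an antibody to GFP, per the description of the samples. A separate antibody label names caup itself, so the labels differ on this point. The labels do not say whether the endogenous gene was still active in this line, and there was no other genotype, tissue or stage to compare. Each embryo mixes all its tissues and the collection spans all of embryonic development, so strong binding in few cells and weak binding in many cannot be told apart.

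A homeobox encodes the homeodomain, a DNA-binding fold of helices that contacts short AT-rich sequences, many of them built around TAAT. Homeodomain proteins set body axes, segment and neuronal identities, and their genes often lie in gene-poor stretches with long introns and distant enhancers. Caup itself belongs to the TALE class, whose homeodomain carries an extra loop, and Iroquois proteins are known to bind the palindrome ACANNTGT. The 42 genes fall into 19 of the ANTP class, 12 of the paired (PRD) class, 3 LIM genes, 2 POU genes, 2 TALE genes, 2 zinc finger homeobox genes and 1 each of the CUT and SINE classes.

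The analysis rests on lists of regions with a summit and a signal value each. The reproducible set, which the authors call optimal, held 6056 peaks. Their signal values, in order, equalled those of the top 6056 regions in the list made from the pooled replicates. Positions were not compared. The pooled list and each replicate's list held 30000 regions and so reach far into weak enrichment. Signal values are the authors' statistic on a scale not given, and they rank regions only within 1 list; they ran from 209 to 6496 in the optimal set, with a median of 333. Library depth is unknown, because the lists carry no read counts.

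A gene was counted as bound at its promoter when an optimal summit lay within 1 kb of one of its transcription start sites (TSSs). By this measure 7 of the 42 homeobox genes were bound, namely ro, NK7.1, btn, bcd, exex, PHDP and zfh2. That is 16.7% (Wilson 95% interval 8.32 to 30.6), beside 27.6% of all protein-coding genes and 38.4% of protein-coding genes of like length. The like-length share, the mean over the members of the share in each one's decile of gene length, corresponds to 16.1 of 42 genes. The members' share was thus 0.434 times that of like-length genes. Genes were matched on length alone, not on the number of annotated TSSs. Intervals cover counting error only, and genes are not replicates, so these shares are given as a description of 1 peak set.

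Length matters for this comparison, because the homeobox genes are long. Their gene bodies ran from 0.477 kb at btn to 49.3 kb at Lim1, with a median of 9.46 kb beside 2.17 kb for all protein-coding genes. Of the 42, 15 fell in the longest decile, where 2 of 15 were bound at the promoter (NK7.1 and zfh2) beside 47.5% of the other genes of that decile. None of the 9 members in the decile below was bound at the promoter, beside 43.4%.

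Among the 7 bound genes, NK7.1 carried the strongest promoter peak. NK7.1 (FBgn0024321, chr3R:14329413-14372951, minus strand) is a homeobox gene of the NK class, and its summit lay 376 bp upstream of a TSS with a signal value of 587, rank 1168 of the optimal set. The region ranked 1258, 1178 and 1157 in replicates 1, 2 and 3, with signal values of 193, 150 and 252 on the scales of those lists. The 3 replicates thus placed it almost alike. A second promoter summit of NK7.1, upstream of a further TSS by 737 bp, had a signal value of 376 and ranks of 3493, 1883 and 2707.

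The maternal gene bcd encodes the morphogen that patterns the anterior of the embryo. Its summit lay 194 bp upstream of the TSS (bcd, FBgn0000166, chr3R:6755842-6759466, minus strand) with a signal value of 384 and ranks of 2837, 1925 and 2726, where the signal values were 123, 113 and 153. The gene ro (rough, FBgn0003267, chr3R:26876771-26881171, minus strand) acts in photoreceptor specification in the eye. Its promoter summit had a signal value of 418 and ranked 2328, 4445 and 1584, with signal values of 138, 67.0 and 211 in the 3 lists. Replicate 2 placed ro lowest, but inside its top 6056 regions as the others did. The ro summit lay 391 bp from the TSS of ro and only 172 bp from that of T48, which encodes an apical protein of the folding mesoderm, so the peak cannot be given to ro alone.

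For each of the 3 weaker promoter peaks, at least 1 replicate fell outside its top 6056 regions. The gene exex (FBgn0041156, chr3L:7948186-7951563, plus strand) is the fly HB9 gene of motor neuron identity, and its summit, 20 bp from the TSS, was the closest of all. It had a signal value of 272 and ranks of 2674, 10122 and 5215, with signal values of 127, 37.0 and 101, so replicate 2 left it outside the top 6056. The gene zfh2 (FBgn0004607, chr4:501810-540874, plus strand) encodes a protein with zinc fingers and homeodomains that acts in wing and leg patterning. Its summit 36 bp from the TSS reached 246, with ranks of 3882, 6619 and 6122 and signal values of 102, 50.8 and 89.5. Only replicate 1 held it in the top 6056, although replicate 3 missed by few ranks. The shortest member, btn (buttonless, FBgn0014949, chr3R:22586149-22586625, minus strand), is needed for the dorsal median cells of the embryo. Its summit reached 217, near the lowest optimal value, and ranked 14585, 3106 and 4686 with signal values of 38.6, 84.0 and 109, so replicate 1 stood apart. It lay 946 bp from the TSS of btn and 184 bp from that of Efa6.

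The sequence under these peaks is shown for those of the promoter summits described so far whose window, 100 bp to each side of the summit, held no annotated exon, and then for the 3 strongest summits of the same kind outside promoters. The bases are the plus strand of RefSeq's release 6 assembly, which is dm6. Capitals mark matches, on either strand, to ACANNTGT, to the homeodomain core TAATTA, to TATCGATA (the DNA replication-related element), to GAGAG (bound by GAGA factor) or to GATAAG (bound by GATA factors). TATCGATA and GATAAG can overlap.
NK7.1 promoter, chr3R:14373227-14373427: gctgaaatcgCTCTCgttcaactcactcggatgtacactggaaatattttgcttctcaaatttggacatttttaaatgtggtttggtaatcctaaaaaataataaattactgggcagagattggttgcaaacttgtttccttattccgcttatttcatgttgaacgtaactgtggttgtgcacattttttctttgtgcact
NK7.1 second promoter summit, chr3R:14370645-14370845: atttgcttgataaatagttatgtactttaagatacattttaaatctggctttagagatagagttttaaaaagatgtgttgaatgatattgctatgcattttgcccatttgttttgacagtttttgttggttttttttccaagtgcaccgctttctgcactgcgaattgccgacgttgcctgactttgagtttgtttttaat
ro promoter, chr3R:26881462-26881662: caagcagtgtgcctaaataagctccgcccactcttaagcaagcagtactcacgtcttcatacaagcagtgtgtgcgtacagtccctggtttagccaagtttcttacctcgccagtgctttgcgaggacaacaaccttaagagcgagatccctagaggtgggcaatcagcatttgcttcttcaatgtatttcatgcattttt
bcd promoter, chr3R:6759560-6759760: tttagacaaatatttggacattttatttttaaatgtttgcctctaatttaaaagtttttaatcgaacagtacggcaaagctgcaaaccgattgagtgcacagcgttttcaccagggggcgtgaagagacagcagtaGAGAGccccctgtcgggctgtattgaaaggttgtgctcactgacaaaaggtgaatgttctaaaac
btn promoter, chr3R:22587471-22587671: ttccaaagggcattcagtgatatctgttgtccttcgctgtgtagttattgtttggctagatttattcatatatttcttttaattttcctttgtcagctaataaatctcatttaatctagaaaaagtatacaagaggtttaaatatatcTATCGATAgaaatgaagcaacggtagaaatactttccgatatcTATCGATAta
zfh2 upstream, chr4:497800-498000: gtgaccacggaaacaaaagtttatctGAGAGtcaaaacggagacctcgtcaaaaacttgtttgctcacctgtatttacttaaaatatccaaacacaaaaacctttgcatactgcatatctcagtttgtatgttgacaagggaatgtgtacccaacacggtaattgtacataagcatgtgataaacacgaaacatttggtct
NK7.1 intron, chr3R:14347427-14347627: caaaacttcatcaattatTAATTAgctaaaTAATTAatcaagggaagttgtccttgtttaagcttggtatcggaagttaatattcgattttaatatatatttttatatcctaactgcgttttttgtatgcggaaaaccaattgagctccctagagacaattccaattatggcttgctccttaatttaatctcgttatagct
NK7.1 second intron summit, chr3R:14353863-14354063: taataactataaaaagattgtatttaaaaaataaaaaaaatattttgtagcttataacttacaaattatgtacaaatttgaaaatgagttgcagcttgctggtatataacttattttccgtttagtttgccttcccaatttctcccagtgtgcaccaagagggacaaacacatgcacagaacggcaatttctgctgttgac
None of these 8 windows holds the Iroquois palindrome. The btn window holds TATCGATA, as 2 separate matches on the side towards Efa6. The first NK7.1 intron window holds TAATTA, also as 2 matches. GAGAG lies in the windows of the first NK7.1 promoter summit, of bcd and of the zfh2 upstream summit, and the remaining 3 windows hold none of the motifs.

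Over all summits of the 42 genes, in the gene body plus 5 kb, the same motifs were counted within 100 bp of the summit. ACANNTGT was at 5 of 39 summits (12.8%, Wilson 95% interval 5.60 to 26.7), beside 11.5% of all 6056. These 5 were intronic summits of Lim1, OdsH and Vsx1, a summit beside btn in an intron of Efa6 and the intergenic summit beyond Rx, so none was at a promoter. TAATTA was at 9 (23.1%, 12.6 to 38.3) beside 14.9%, and 3 of these 9 lay in introns of NK7.1. TATCGATA was at 3 (7.69%, 2.65 to 20.3) beside 3.62%, GAGAG at 12 (30.8%, 18.6 to 46.4) beside 25.9% and GATAAG at 4 (10.3%, 4.06 to 23.6) beside 13.2%. Each interval holds the share of all summits, but it treats the 39 summits as independent. Of these, 10 came from NK7.1, and pairs at Lim3 and bcd lay only 202 and 208 bp apart. The shares are thus a description, and no difference was tested. The median GC content of the windows was 35.8%, beside 37.8% over all optimal summits.

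The remaining gene bound at its promoter was PHDP (FBgn0025334, chr2R:23883136-23884440, minus strand), a paired-class gene. Its summit, 478 bp upstream of the TSS, was the second strongest promoter peak of the members, with a signal value of 514. It ranked 1681, 1886 and 1230, with signal values of 165, 115 and 244, and so lay well inside the top 6056 of every replicate. Its window, not printed here, holds GATAAG. Over the 7 bound genes, the strongest promoter summit stood at a median percentile of 60.4 by signal value among optimal peaks, beside 61.6 for the other bound protein-coding genes. In the top 6056 regions of replicates 1, 2 and 3, the members bound in that replicate stood at median percentiles of 54.5, 48.7 and 64.4 (SD 7.94, n = 3). The members bound differed between replicates, so this SD also holds that difference. The median of the bound homeobox promoters was thus middling, but single genes ran from percentile 5.12 at btn to 80.7 at NK7.1.

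**Figure D1:**
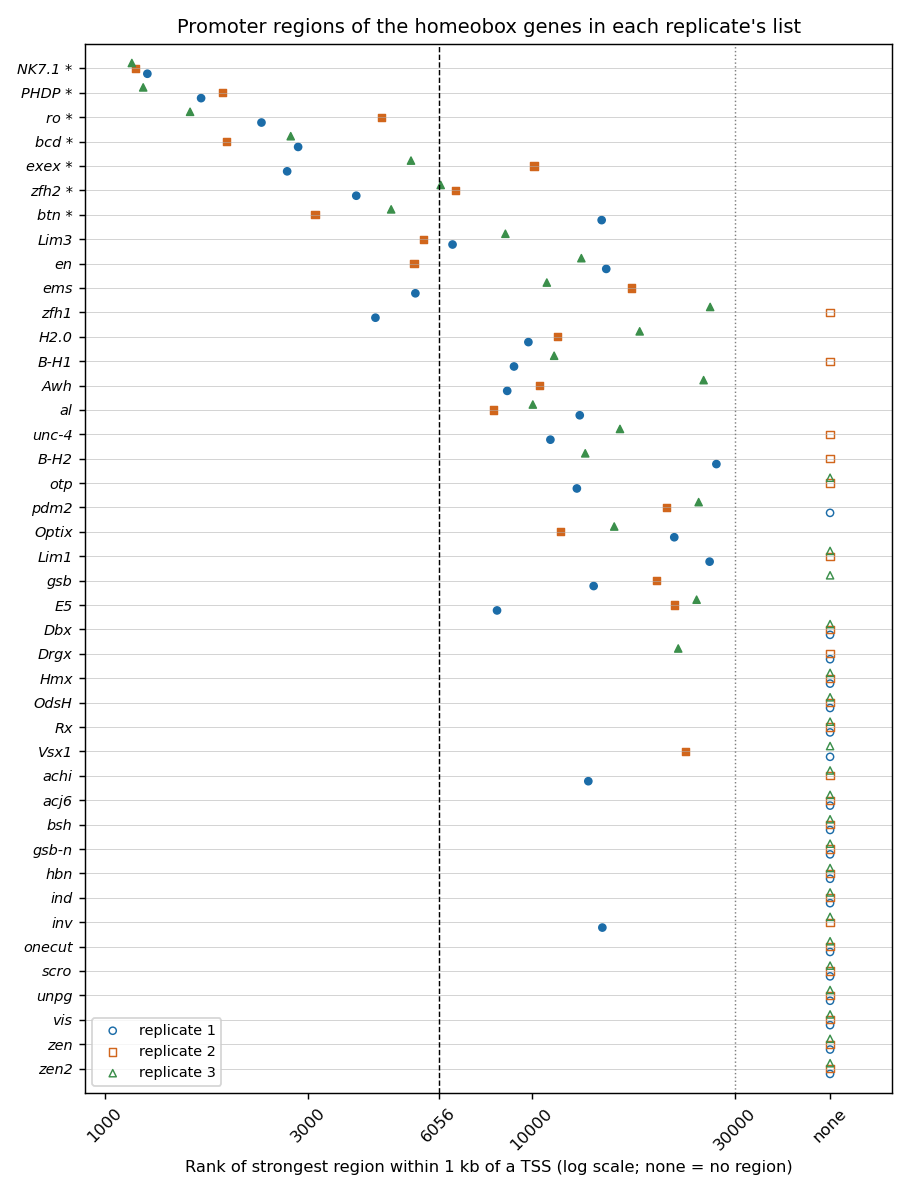
Rank of the strongest region within 1 kb of a TSS in the list of each replicate (x axis, log scale; strong regions to the left) for each of the 42 homeobox genes (y axis); open symbols at the right mean that the list has no region there. Asterisks mark the 7 genes with an optimal promoter summit, the dashed line stands at rank 6056 and the dotted line at the end of the lists, 30000. NK7.1, PHDP, ro and bcd lie left of the dashed line in all 3 replicates.

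Each replicate alone gave a similar picture. Among the top 6056 regions of replicate 1, 8 members had a promoter summit (19.0%, beside 41.0% of like-length genes and 29.4% of all protein-coding genes). In replicate 2 there were 7 (16.7%, beside 37.7% and 28.1%) and in replicate 3 there were 6 (14.3%, beside 36.8% and 26.3%). Requiring an optimal summit inside the top regions of all 3 replicates left NK7.1, PHDP, bcd and ro, which is 4 of 42 (9.52%, 3.77 to 22.1), beside 27.7% of like-length genes and 19.9% of all protein-coding genes. Altogether 11 members, a count given without a like-length share, had a promoter summit in the top list of at least 1 replicate. The 4 that were not in the optimal set were ems and zfh1 in replicate 1 and en and Lim3 in replicate 2.

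In the pooled list the lowest optimal signal value falls at rank 6056. The strongest promoter region of Lim3 ranked 6905 there, that of en 8258, that of ems 8850 and that of zfh1 10083. In replicates 1, 2 and 3 the promoter of en, the selector gene of posterior compartments, ranked 14950, 5301 and 13072. That of ems, a head gap gene, ranked 5340, 17131 and 10850. Each was thus supported by 1 replicate and weak in the others. Of the 35 members without an optimal promoter summit, 15 had some region of the pooled list within 1 kb of a TSS, ranked between 6905 and 24102.

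Counting every pooled region, however weak, 22 members had a promoter summit (52.4%, 37.7 to 66.6), beside 68.6% of like-length genes and 53.8% of all protein-coding genes. For 15 members neither the pooled list nor any replicate's list had a region at the promoter: zen, zen2, Hmx, ind, scro, Dbx, gsb-n, vis, unpg, hbn, Rx, acj6, OdsH, bsh and onecut. As background, ind acts in the intermediate column of neuroblasts, zen in the dorsal embryo and hbn in the brain. The samples were whole embryos, so an absent region does not speak of any 1 tissue.

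**Figure D2:**
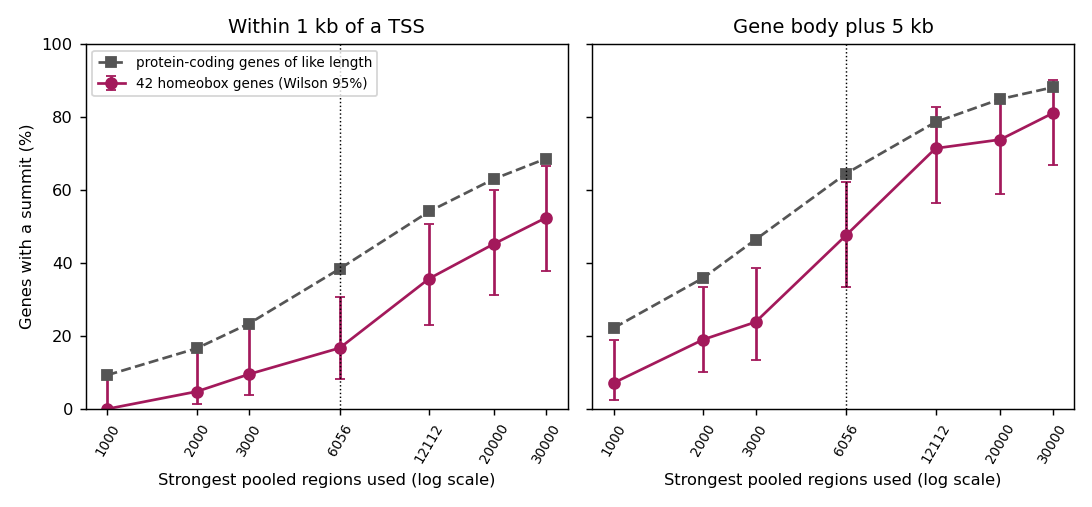
Share of genes bound within 1 kb of a TSS (left) or in the gene body plus 5 kb (right), in percent, against the number of strongest pooled regions used (log scale), for the 42 homeobox genes (circles, bars are Wilson 95% intervals) and for protein-coding genes of like length (squares). The dotted line marks the 6056 optimal peaks; the homeobox genes lie below at each of the 7 depths in both panels.

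The members' share lay below that of like-length genes whichever number of pooled regions was used, from 1000 to 30000. With the 1000 strongest regions no member had a promoter summit, an interval that reaches up to 8.38%, beside 9.27% of like-length genes. With 3000 there were 4 (9.52% beside 23.4%), with 12112 there were 15 (35.7% beside 54.1%) and with 30000 the 22 given above.

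One property of the members that the list did not use was their distance from other genes. A TSS of another gene lay within 2 kb of a TSS of 11 of the 42 homeobox genes (26.2%), beside 66.1% of all protein-coding genes and 60.2% of those of like length. Of the 11 with such a neighbour, ro, btn, exex and PHDP were bound at the promoter, that is 4 of 11, while zfh1, ind, otp, Optix, achi, Lim3 and H2.0 were not. Of the 31 without one, 3 were bound, namely NK7.1, bcd and zfh2. Over all protein-coding genes, 32.6% of those with a neighbouring TSS and 17.8% of those without had a promoter summit. Matched on both length and the presence of a neighbour, a comparison added after the first results were seen, protein-coding genes had a share of 31.6%, and the members' ratio to it was 0.528. When a summit was counted only for the gene with the nearest TSS, ro and btn dropped out and 5 of 42 remained, beside 32.6% of like-length genes.

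In the gene body plus 5 kb to either end, 20 of the 42 genes had an optimal summit. This is 47.6% (33.4 to 62.3), beside 64.5% of like-length genes and 54.4% of all protein-coding genes, a ratio of 0.738 to like-length genes. Much of this count comes from the flanks: in the gene body alone 9 members had a summit, beside 33.6% of like-length genes, and 21 of the 39 summits lay in the flanks. The 20 genes comprise the 7 above and 13 without a promoter summit: zfh1, Awh, otp, achi, vis, unpg, Rx, Vsx1, Lim1, OdsH, Lim3, al and bsh. In the longest decile 10 of 15 members had such a summit, beside 73.6%, but in the decile below it 1 of 9, beside 68.7%. That one was al. With every pooled region the count was 34 (81.0%, 66.7 to 90.0), beside 88.1% and 81.6%, and the 8 genes with none were zen, Hmx, E5, ind, scro, Dbx, hbn and onecut.

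The 20 genes had 39 distinct summits between them. Introns of any gene held 18 of them (46.2%, beside 28.2% of all optimal summits) and promoters of any gene 17 (43.6% beside 61.1%). Intergenic sequence held 3 (7.69% beside 8.85%) and coding exons 1 (2.56% beside 0.198%). The members are long genes, and these shares were not set beside summits at genes of like length. Of the 17 at promoters, 6 were nearest to the member and 11 to another gene. By the nearest TSS at any distance, 14 of the 39 summits were nearest to the member and 25 to another gene. Gene bodies plus 5 kb of the 42 genes cover 989 kb, which gives 3.94 summits per 100 kb (exact Poisson 95% interval 2.80 to 5.39), beside 5.21 over the other protein-coding genes. The median signal value of the 39 summits was 317, at the percentile 45.9 of optimal peaks. All 3 replicates held 21 of them in their top 6056 regions (53.8%, beside 62.7% of all optimal peaks), 2 replicates held 13 and 1 replicate held 5.

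**Figure D3:**
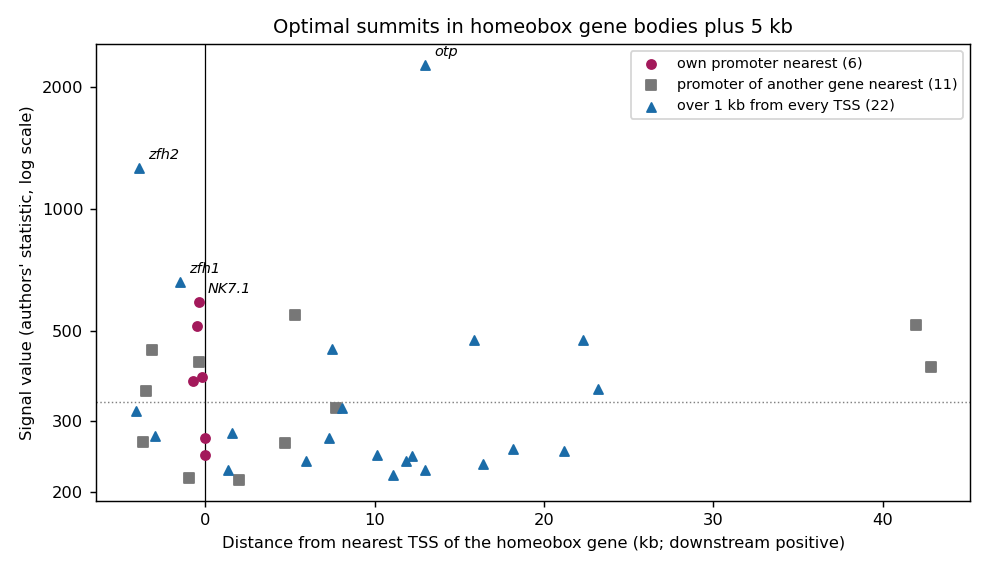
Signal value of the 39 optimal summits in homeobox gene bodies plus 5 kb (y axis, authors' statistic, log scale) against the distance to the nearest TSS of that homeobox gene (x axis, kb, downstream positive). Circles are the 6 within 1 kb of a TSS of the member and nearest to it, squares the 11 within 1 kb of a TSS and nearest to another gene, among them the promoter summits of ro and btn, and triangles the 22 over 1 kb from every TSS; the dotted line is the median of all optimal peaks, 333. The strongest values, at otp (2263) and zfh2 (1260), lie away from promoters.

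The strongest of the 39 summits lay inside otp (orthopedia, FBgn0015524, chr2R:20883625-20903414, minus strand), a paired-class gene active in the hindgut and nervous system. The peak at chr2R:20884412-20884774 had a signal value of 2263, rank 58 of the 6056 optimal peaks. It ranked 50, 87 and 65 in replicates 1, 2 and 3, with signal values of 843, 529 and 906, so it was among the strongest regions of every replicate. The summit fell in the coding part of the last exon, which spans chr2R:20883625-20884761, and lay 13007 bp from the nearest TSS of otp and 4647 bp from that of Cib2, the nearest of any gene. Only 12 of all optimal summits lay in coding exons away from promoters, and this was the strongest of them, ahead of one at 2084. The promoter of otp itself had a region in replicate 1 only, at rank 12759, and one in the pooled list at 16689.

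The second strongest lay 3910 bp upstream of zfh2, in intergenic sequence at chr4:497742-498068. Its signal value was 1260, rank 275, and in the replicates it ranked 339, 288 and 230 with signal values of 374, 316 and 581. It is the zfh2 upstream window printed above. Beside it, the promoter summit of zfh2 (246) and a summit in its intron, 5963 bp downstream of the TSS (239; ranks 3730, 17002 and 5966), were weak. The third strongest belonged to the related gene zfh1 (FBgn0004606, chr3R:30765926-30789202, plus strand), a repressor of the mesoderm and of motor neurons. This intronic summit, 1459 bp upstream of the second TSS, had a signal value of 660 and ranks of 864, 1384 and 894. A weaker zfh1 summit near the first TSS (226) ranked 8062, 4981 and 6110, inside the top 6056 of replicate 2 only.

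NK7.1 had more summits than any other member, 10 in the gene body plus 5 kb, or 18.7 per 100 kb. Per length the shorter genes btn (28.6 per 100 kb) and bcd (22.0 per 100 kb) had more. All btn summits, and the upstream pair at bcd, were nearer to TSSs of other genes. Of the 10 summits of NK7.1, 6 lay in its introns, 2 at its own promoters and 2 downstream at the promoters of spn-B (516) and ATPsynE (407). The 6 intronic summits lay 4202 to 14259 bp from a TSS of Dnaaf5. Their distance from the nearest TSS of NK7.1 was larger, 12233 to 22290 bp. Signal values ran from 227 to 587, and 6 of the 10 were in the top 6056 regions of all 3 replicates. The strongest intronic summits had signal values of 475 (ranks 2659, 2428 and 1227) and 474 (1860, 1558 and 1669). A further 23 weaker pooled regions lay in the same window. Counts as high were found at 37 of the 13945 protein-coding genes (0.265%), and at 35 of the 1395 in the longest decile (2.51%).

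**Figure D4:**
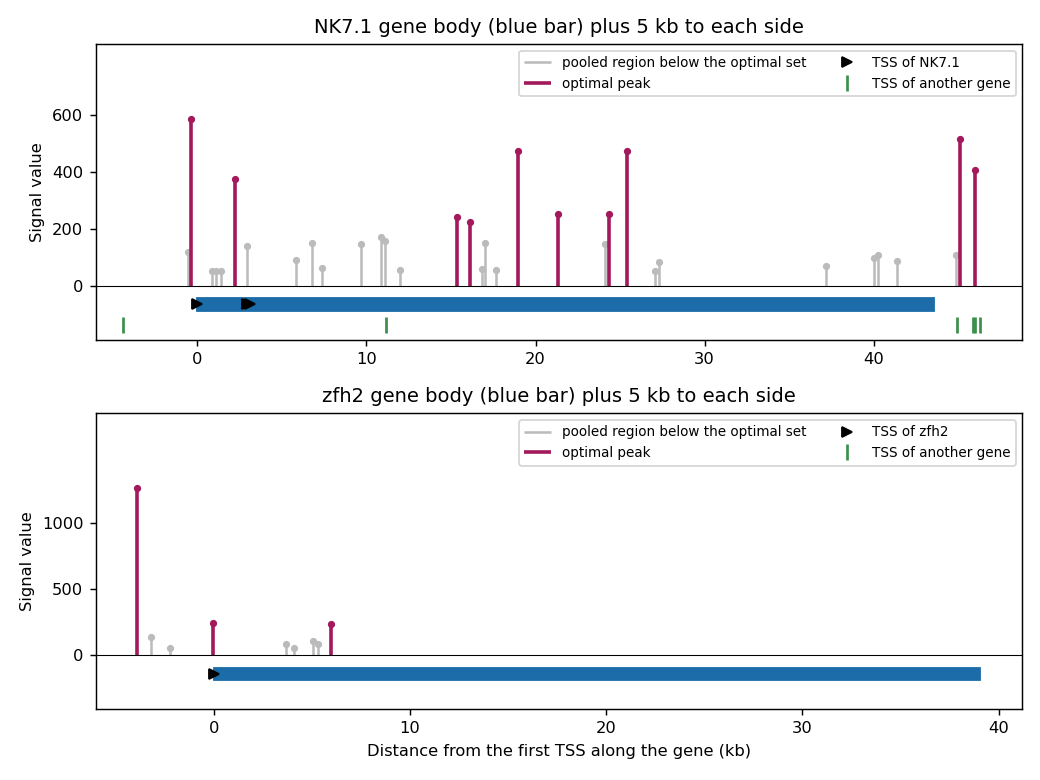
Summits in the gene body plus 5 kb of NK7.1 (top) and zfh2 (bottom): signal value (y axis, authors' statistic in the pooled list) against distance from the first TSS in the direction of transcription (x axis, kb). Coloured stems are optimal peaks, grey stems weaker pooled regions, the blue bar is the gene body, arrowheads are the gene's own TSSs and green ticks are TSSs of other genes. NK7.1 shows 10 optimal peaks, 6 of them in introns from 15.4 to 25.4 kb and the others at its own promoters or past its end. The zfh2 map shows 3 with the strongest, 1260, upstream.

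The 3 LIM homeobox genes, which serve neuronal and appendage identity, all had summits in the gene body plus 5 kb and none at the promoter. Of genes of their lengths, 73.6% had such a body summit and 47.5% a promoter summit, and 3 genes are too few for a comparison. Lim3 (FBgn0002023, chr2L:19079256-19108427, minus strand), a gene of motor neuron subtypes, had a pair of intronic summits 202 bp apart with signal values of 450 (ranks 3138, 1004 and 1859) and 271 (6102, 2053 and 1859). In replicate 3 both lay in 1 region. Both were nearer to TSSs of CG17344 and CG43731 (3271 and 3069 bp) than to one of Lim3 (7502 and 7300 bp). Lim1 (FBgn0026411, chrX:8756539-8805804, minus strand), a gene of distal leg and antenna, had intronic summits of 322 (ranks 2907, 3279 and 3743) and 220 (7476, 8872 and 4383). For Awh (FBgn0013751, chr3L:3846206-3861692, plus strand), needed for imaginal precursor cells, the summit lay past the end of the gene with a signal value of 234. It ranked 5593 and 4038 in replicates 1 and 3 and fell in no region of replicate 2.

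Among the paired-class genes of head and brain, Rx (FBgn0020617, chr2R:20916753-20937030, plus strand) had a summit of 358 past its end, 23221 bp from its TSS and 4047 bp from that of Act57B, at ranks of 4572, 2427 and 2632. Vsx1 (FBgn0263511, chrX:5594255-5612865, plus strand), known for the optic lobe, had an intronic summit of 247 (9499, 4579 and 3824). OdsH (FBgn0026058, chrX:17791010-17814011, plus strand), the gene of hybrid male sterility, had one of 238 (7692, 4808 and 4880). For both, replicate 1 ranked the region below its top 6056 and the others did not. The appendage gene al (aristaless, FBgn0000061, chr2L:378112-387439, plus strand) had a summit in its own intron, 1561 bp from its TSS, that reached 279 and ranks of 4258, 3723 and 3985.

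At unpg, bsh, achi and vis, the summit lay within 1 kb of a TSS of a different gene. The summit counted for unpg (FBgn0015561, chr2R:9195205-9199870, plus strand), a gene of the embryonic nervous system, had a signal value of 449 and ranks of 1465, 2036 and 2198, but lay 3141 bp from its TSS and 32 bp from TSSs of CG45085 and CG8026. That of bsh (FBgn0000529, chr2L:19765776-19769067, minus strand), a gene of optic lobe neurons, reached 264 and lay 237 bp from the TSS of fbp. It ranked 7790 and 1835 in replicates 2 and 3 and fell in no region of replicate 1. The TALE genes achi (FBgn0033749, chr2R:12511534-12515062) and vis (FBgn0033748, chr2R:12507896-12510615), neighbours that act in spermatogenesis, shared 1 summit of 322 at the promoter of fdl (ranks 3311, 4287 and 2779). A second ro summit, of 545, lay 21 bp from the TSS of ms(3)K81. The upstream pair of summits at bcd (354 and 265), 208 bp apart, lay at the TSSs of lncRNA:CR45593 and Ama.

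Leaving out summits whose nearest TSS lay within 1 kb and belonged to another gene kept 15 of 42 members, beside 45.4% of like-length genes. The ratio was 0.787, and this count was added after the first results were seen. The genes lost were achi, vis, unpg, bsh and ro. By distance alone, the nearest optimal summit lay a median of 12264 bp from a TSS of the member, beside 5303 bp for other protein-coding genes. The distances ran from 20 bp at exex to 1628672 bp at scro, an NK-class gene on 3L.

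The 22 members with no optimal summit in the gene body plus 5 kb were ems, zen2, zen, Hmx, E5, ind, scro, Dbx, Optix, gsb-n, inv, en, gsb, hbn, acj6, B-H1, B-H2, unc-4, Drgx, pdm2, H2.0 and onecut. They include the segment polarity genes en, inv and gsb, the dorsal gene zen, the Bar genes B-H1 and B-H2 of eye and sensory organs, and the neuronal genes unc-4, acj6, Drgx and Dbx. Both POU genes (acj6 and pdm2), the CUT gene onecut and the SINE gene Optix were among them. A summit in the gene body plus 5 kb was found at 73.6% of genes of the POU lengths and 68.7% for onecut and Optix. Classes of 1 or 2 genes are too small for a comparison. The 5 whose promoter regions came closest in the pooled list were en at rank 8258, ems at 8850, H2.0 at 11102, B-H1 at 11326 and unc-4 at 14497. In replicates 1, 2 and 3 the promoter of H2.0, a gene expressed in visceral mesoderm, ranked 9824, 11494 and 17905. The promoters of B-H1 (9090 and 11287) and unc-4 (11062 and 16099) had regions in replicates 1 and 3 and none in replicate 2.

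Several members are neighbouring pairs of related genes. The pair en and inv (14.3 kb apart), the pair ems and E5 (26.9 kb), the pair zen and zen2 (8.73 kb), the Bar genes (73.3 kb) and the pair gsb and gsb-n (9.63 kb) all lacked an optimal summit in both genes, and none lay between them. In 4 of these 5 pairs at least one partner had a weak promoter region in the pooled list: en but not inv, ems but not E5, gsb (24102) but not gsb-n, and both Bar genes (11326 and 16385). Only zen and zen2 had none. Of the pair unc-4 and OdsH (12.3 kb apart), unc-4 had no optimal summit and OdsH 1. For achi and vis, 0.918 kb apart, the single summit was shared. The unlinked relatives zfh1 and zfh2 both carried summits, 2 and 3.

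By class, 4 of 19 ANTP genes were bound at the promoter, beside 34.4% of genes of their lengths, and 6 in the gene body plus 5 kb, beside 60.3%. Of the 12 paired-class genes 2 were bound at the promoter, beside 40.2%, and 7 in the gene body plus 5 kb, beside 66.4%. By arm, 4 of the 10 members on 3R were bound at the promoter (27.9% of the other protein-coding genes of that arm), 1 of 12 on 2R (28.3%), 1 of 5 on 3L (29.1%) and 1 of 2 on chromosome 4 (14.1%). None of the 6 on 2L (26.6%) or the 7 on X (26.0%) was bound. Groups this small have wide intervals, and no difference between them was tested.

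The other homeobox genes were counted in the same way. Of 54 such genes, 10 were bound at the promoter (18.5%, 10.4 to 30.8), beside 40.7% of protein-coding genes of their lengths, and 25 in the gene body plus 5 kb (46.3%, 33.7 to 59.4), beside 66.8%. The 42 members, at 16.7% and 47.6%, lie inside both intervals. The groups within the 54 are small and spread widely: 2 of 3 Iroquois genes were bound at the promoter and 3 of 3 in the gene body plus 5 kb, 1 and 5 of 8 Hox genes, 2 and 4 of 8 NK genes, 1 and 3 of 6 retinal genes, 1 and 1 of 6 segmentation genes and 3 and 9 of the other 23. A neighbouring TSS within 2 kb was found at 20.4% of the 54.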

How the data were processed

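Caup-GFP ChIP-seq regions on dm6 were analysed for 3 biological replicates of whole embryos; the labels do not say that these came from separate cultures. Per the deposited text notes, the authors called regions for each replicate relative to a control alignment (not analysed here) and thresholded on the irreproducible discovery rate to get the optimal set. The sources used here name no aligner, caller or threshold. The signal value that the authors deposited with each region has an unstated scale and was used only within 1 list. The depth is unknown. The dm3 lists were not used.

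Summits (region start plus the deposited offset) were placed on the Ensembl release 115 annotation, without transposable elements and pseudogenes, with Python 3.11.15, pandas 2.3.3 and numpy 2.4.6. Coordinates are 1-based. Gene length was taken in 10 classes over all 13945 protein-coding genes. A summit had replicate support where it lay inside one of that replicate's top 6056 regions. The scripts were tested on simulated data.

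The members, comparison lists and motifs were chosen with earlier results of these data known. With 1 group there was no test, and no p-value is given. Every member is named as bound or unbound. Genes with a promoter summit are described with each replicate's values, as are the strongest body summits of the others and the 5 unbound genes of best promoter rank. Alternatives were the list length, the replicates, the windows, the nearest-TSS rule and the length classes. A genome check read 99.87% of annotated start codons as ATG.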

Additional observations from a re-analysis of the deposited data

How the results depend on the processing

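The promoter share of the 42 genes relative to like-length genes stayed below 1 in every alternative run. Outside the runs with the 1000 and 2000 strongest pooled regions, this ratio ran from 0.316 to 0.764. The lowest came from optimal peaks that the top lists of replicates 1 and 2 both hold. The highest came from all 30000 pooled regions, chosen after seeing the data. The gene body ratio of these runs went from 0.510 to 0.919. With the 1000 and 2000 strongest pooled regions, promoter shares were 0% beside 9.27% and 4.76% beside 16.6%. Gene body shares were 7.14% beside 22.2% and 19.0% beside 35.9%. Counts moved with the number of regions used. With the 3028 strongest optimal peaks there were 4 promoter-bound members, beside 23.6% of like-length genes. In the gene body plus 5 kb there were 10, beside 46.7% (ratio 0.510). The summits numbered 17, and the median percentile was 41.7. With 12112 pooled regions there were 15 promoter-bound members (beside 54.1%), 84 summits and a percentile of 43.0. With peaks in all 3 replicates there were 4 promoter-bound members (beside 27.7%) and 21 summits. Setting each replicate aside in turn kept the optimal peaks found in the top lists of both others. This is a filter on a set made from all 3 replicates, so counts can only fall, and it does not show what 2 replicates alone would give. It gave 4 to 5 promoter-bound members, 15 to 17 in the gene body (ratio 0.641 to 0.720) and 21 to 28 summits, each lowest for replicates 1 and 2. The promoter shares of like-length genes were then 30.0% to 31.2%. Without the 5 kb flank, 9 members (beside 33.6% of like-length genes) and 18 summits remained. Added after seeing the data, 3000, 20000 and 30000 pooled regions gave 4, 19 and 22 members at the promoter, beside 23.4%, 63.0% and 68.6%. In the body they gave 10 (ratio 0.513), 31 and 34, beside 46.4%, 84.9% and 88.1%. With 2 times as many top regions, replicates 1, 2 and 3 gave 14, 13 and 11 at the promoter, with no like-length share given. GATAAG lay within 200 bp of 28.2% of member summits, beside 23.5% of all, where the shares at 100 bp (10.3% and 13.2%) stand in the opposite order. The cause of these moves, beyond the number of regions, summits or bases searched, was not tested. The unknown depth limits every statement on weak regions. No paired analysis was possible because there is 1 group.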
